A study of Mus musculus with 16 samples.

Results

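Signals of 5 genes, of 19938 genes measured, were examined in mouse footpads: Glo1, Kcnma1, Abhd1, 1810037I17Rik and Gm10590. They were read by 10 probe sets, all those whose annotation named 1 of these genes and no other, out of 21789 probe sets naming 1 gene and 35556 probe sets in all. The genes had been chosen by their measured signal differences between the AIRmax and AIRmin lines, with and without pristane. Their line differences are therefore given as a description, without a test. A probe set is a group of short oligonucleotides on the array that is read as 1 value, here a log2 signal, so that a difference of 1 is a 2-fold difference. The arrays held no measure of heredity. A probe set that is apart in both states shows a stable difference between these mice and does not show by itself that the difference was inherited.

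Total RNA from footpads was hybridized to 16 Affymetrix Mouse Gene 1.0 ST arrays, 4 in each group, with 2 males and 2 females per group. Both mouse lines are outbred. AIRmax was bred for a large acute inflammatory reaction and AIRmin for a small one. The AIRmax control group (arrays 105 to 108) and the AIRmin control group (arrays 113 to 116) were taken at day 0. The AIRmax pristane group (arrays 109 to 112) and the AIRmin pristane group (arrays 117 to 120) were taken at day 160 and had received 2 intraperitoneal injections of 0.5 ml of the mineral oil pristane, 60 days apart, which causes arthritis in susceptible mice. All mice were labelled 2 to 4 months old, at day 0 and at day 160 alike. A mouse taken at day 160 is older than 4 months, so the label cannot give its age at sampling. Treatment, time and age at sampling cannot be told apart in this design. The labels do not say that control mice had received no pristane, and the protocol counts days from the second injection, so that control here names the label alone. The array numbers follow the groups, and the order of processing cannot be told apart from the group. The study's methods call the 4 samples of a group biological replicates.

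Array medians lay between 5.435 and 5.53. Krt1, Krt5, Krt10 and Krt14, keratins of stratified skin, had signals above 10.3 on every array. The level of an absent transcript was read from Xist in males and from the Y-linked Kdm5d, Eif2s3y and Uty in females, which separated the labelled sexes on all 16 arrays. These 32 values ran from 2.04 to 4.32 with a median of 2.73. Signals within that range were not shown to exceed background. Fewer cells of a type and less RNA per cell cannot be told apart in whole footpads.

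Glo1 encodes glyoxalase I, which joins methylglyoxal, a reactive by-product of glycolysis, with glutathione for removal. A duplicated chromosome segment that holds Glo1 is known among inbred mouse strains, and copy number was not measured here. Kcnma1 encodes the pore-forming subunit of the BK channel, a potassium channel opened by calcium and voltage in smooth muscle, neurons and glands. Abhd1 belongs to the alpha/beta hydrolase domain family. 1810037I17Rik encodes another-regulin, a small membrane peptide that binds the calcium pump of the endoplasmic reticulum. Gm10590 is a predicted gene without a described function.

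For 3 of the 5 genes the RefSeq table of promoters held an entry. The windows of Glo1 and 1810037I17Rik are shown since both genes differed between the lines and are annotated as protein-coding. Each is the 250 bases before the annotated start in GRCm38.p6, the reference of strain C57BL/6J, written 5′ to 3′ on the strand of the gene. The mice themselves were not sequenced. Capitals mark matches to the GC box GGGCGG and the CCAAT box CCAAT on either strand. Neighbouring GC box matches share bases. The first is at chr17:30612660-30612909 on the minus strand and the second at chr3:122924147-122924396 on the plus strand.
Glo1: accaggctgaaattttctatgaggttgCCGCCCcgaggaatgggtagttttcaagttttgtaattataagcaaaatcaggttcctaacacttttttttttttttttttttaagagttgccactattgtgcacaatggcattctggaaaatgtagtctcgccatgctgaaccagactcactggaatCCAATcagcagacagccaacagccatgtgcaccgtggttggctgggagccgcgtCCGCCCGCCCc
1810037I17Rik: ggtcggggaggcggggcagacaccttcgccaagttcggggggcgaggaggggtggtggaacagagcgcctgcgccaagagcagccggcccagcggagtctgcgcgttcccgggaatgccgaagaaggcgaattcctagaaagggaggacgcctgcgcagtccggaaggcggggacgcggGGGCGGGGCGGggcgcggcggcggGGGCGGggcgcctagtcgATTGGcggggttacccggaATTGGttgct

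The Glo1 window held 3 GC box matches and 1 CCAAT match, and the 1810037I17Rik window held 3 and 2. Of 32851 RefSeq promoter windows of this length, 32.7% held a GC box and 33.8% a CCAAT box. The TATA box letters TATAAA, present in 12.4% of windows, and the letters TGACNNNGC, the core of the antioxidant response element and present in 10.2%, were in neither. G and C made up 46.4% of the Glo1 window and 72% of the 1810037I17Rik window.

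Glo1 was lower in AIRmax than in AIRmin footpads, with both the control and the pristane label. Probe set 10449644 had signals of 8.78, 8.72, 8.66 and 8.25 on the 4 AIRmax control arrays and of 9.54, 9.79, 9.89 and 9.58 on the 4 AIRmin control arrays. With pristane the signals were 8.10, 8.66, 8.70 and 7.96 in AIRmax and 9.93, 9.55, 9.86 and 9.69 in AIRmin. All 8 AIRmax arrays lay below all 8 AIRmin arrays, with a gap of 0.76. The mean of the AIRmax control group was 8.60 ± 0.24 (SD, n = 4) against 9.70 ± 0.17 in AIRmin, a difference of -1.09 (SE 0.13) or 2.14-fold. In pristane footpads it was 8.36 ± 0.38 against 9.76 ± 0.17, a difference of -1.40 (SE 0.19) or 2.64-fold. The line difference in pristane minus that in control footpads was -0.31, with a 95% interval from -0.82 to 0.20.

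The second Glo1 probe set, 10471675, followed the first. Its line differences were -1.07 in control and -1.39 in pristane footpads. On no array did the 2 probe sets differ by more than 0.0954, and their correlation over the 16 arrays was 0.999. The deviations from the group means correlated at 0.994. Both list the same accessions, and their values are no independent readings of the gene. The number of probe set 10449644 falls among those of genes on chromosome 17, where RefSeq places Glo1 (GRCm38.p6, chr17:30592861-30612659), and all 10 nearest probe sets by number that name 1 gene lie there. For probe set 10471675 all 10 lie on chromosome 2. On this array the numbers run largely in genome order, with 94.3% of adjacent numbers on 1 chromosome, but they were not used to place or name any gene.

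The 2 probe sets annotated to Kcnma1 disagreed. Probe set 10418053 lists 17 RefSeq transcripts of the gene and is numbered among genes of chromosome 14, where Kcnma1 lies (chr14:23292288-24005110). Its signals were 6.09, 6.30, 6.32 and 5.98 in AIRmax control and 6.42, 6.23, 6.68 and 6.64 in AIRmin control footpads. In pristane footpads they were 5.96, 6.02, 6.80 and 6.63 in AIRmax and 5.93, 6.51, 5.99 and 6.19 in AIRmin. The lines overlapped in both states. The line difference in control footpads was -0.32 (SE 0.13), with a 95% interval from -0.60 to -0.04. In pristane footpads it was 0.19 (SE 0.22), opposite in sign, with a 95% interval from -0.29 to 0.68. The 95% interval of the difference of 0.51 between the states ran from -0.04 to 1.07.

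Probe set 10582545 separated the lines more widely than any other probe set naming 1 gene. Its signals were 8.81, 9.89, 9.56 and 9.82 in AIRmax control and 3.78, 3.02, 3.52 and 3.50 in AIRmin control footpads. In pristane footpads they were 9.30, 10.13, 10.03 and 9.30 in AIRmax and 3.95, 3.11, 3.94 and 3.41 in AIRmin. All 8 AIRmax arrays were thus bright, and all 8 AIRmin arrays were within the range of absent transcripts. The group means were 9.52 ± 0.49 against 3.45 ± 0.32 (SD, n = 4) in control and 9.69 ± 0.45 against 3.60 ± 0.41 in pristane footpads. The measured differences were 6.07 (SE 0.24) and 6.09 (SE 0.26). Against the upper end of the absent range the signal in AIRmax was at least 36.7-fold higher in control and at least 41.3-fold higher in pristane footpads. Of 21789 probe sets, 0 had a larger line difference in both states in 1 direction.

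What probe set 10582545 detects was not settled by the files. It lists 4 accessions and 0 curated RefSeq transcripts. All 10 nearest probe sets by number that name 1 gene lie on chromosome 8, between Sult5a1 and Nup133, and none on chromosome 14. Its correlation with probe set 10418053 over 16 arrays was -0.12, and that of the deviations from the group means was -0.07. The wide line difference annotated to Kcnma1 was hence seen only with the probe set that lists no RefSeq transcript. Probe set 10418053, which lists them, had a small control difference of the opposite sign, -0.32, with overlap of the lines. The plot of probe set pairs shows both cases.

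**Figure D1:**
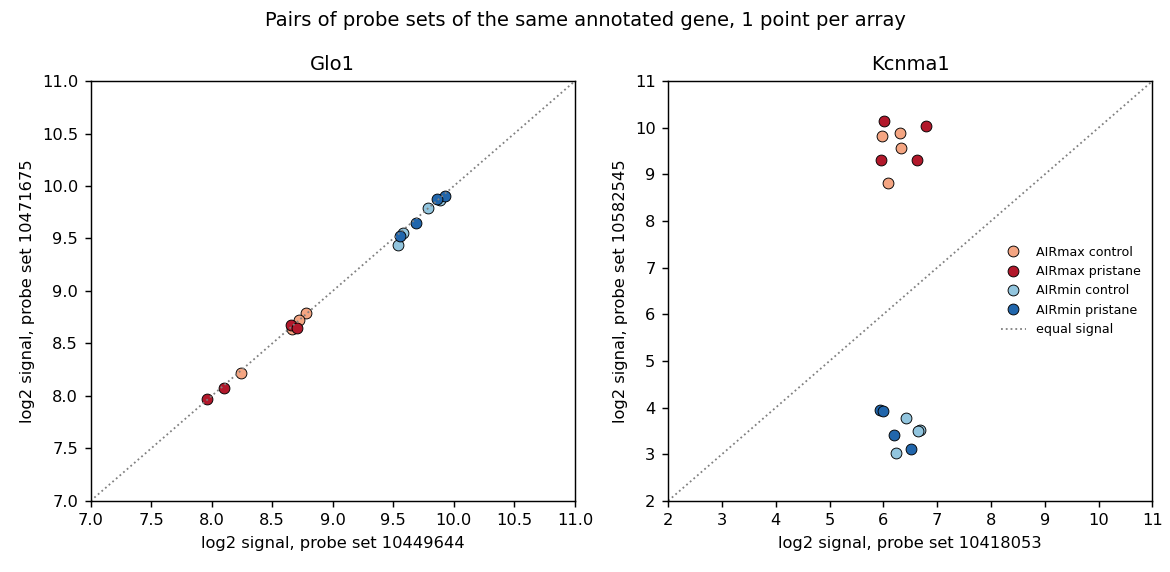
Log2 signals of the 2 probe sets of Glo1 (left) and of Kcnma1 (right) against each other, 1 point per array, coloured by group, with a dotted line of equal signal. The Glo1 points differ from it by at most 0.0954 along the vertical axis, whereas the Kcnma1 points form 2 clouds that differ in probe set 10582545 (vertical axis) and overlap in probe set 10418053 (horizontal axis).

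Abhd1 was higher in AIRmax footpads in both states. Probe set 10520622 had signals of 6.80, 6.98, 6.50 and 6.52 in AIRmax control and of 5.53, 5.51, 5.65 and 5.74 in AIRmin control footpads. In pristane footpads the signals were 6.47, 6.34, 6.29 and 6.36 in AIRmax and 5.93, 5.58, 5.30 and 5.38 in AIRmin. All 8 AIRmax arrays lay above all 8 AIRmin arrays by at least 0.36. The difference was 1.09 (SE 0.12), or 2.13-fold, in control and 0.82 (SE 0.14), or 1.76-fold, in pristane footpads. The change between the states was -0.27, with a 95% interval from -0.67 to 0.13. RefSeq annotates Abhd1 in the reference strain as a transcribed pseudogene (chr5:30950066-30955095). It overlaps Preb by 3428 bases, and signal from the 2 genes in the shared bases cannot be told apart here.

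1810037I17Rik was also higher in AIRmax footpads. Probe set 10495826 had signals of 6.35, 5.89, 5.75 and 5.83 in AIRmax control and of 4.31, 4.16, 3.82 and 3.77 in AIRmin control footpads. In pristane footpads they were 6.26, 5.17, 6.13 and 5.18 in AIRmax and 4.21, 4.13, 4.80 and 3.86 in AIRmin. The lines did not overlap in either state, and the 4 AIRmin control arrays and 3 of the 4 AIRmin pristane arrays were within the absent range. The measured differences were 1.94 (SE 0.16) and 1.44 (SE 0.30). Against the upper end of the absent range, or the signal itself on the 1 array above it, they were at least 3.10-fold and at least 2.36-fold. The change between the states was -0.51, with a 95% interval from -1.28 to 0.27.

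A further probe set, 10604019, names 1810037I17Rik together with Gm2036 and did not follow that pattern. Its signals lay between 10.5 and 11.4 on all arrays. Its line differences were 0.03 in control and -0.47 in pristane footpads, and the lines overlapped in both. Its number falls among genes of the X chromosome, while RefSeq places 1810037I17Rik on chromosome 3 (chr3:122924397-122926194). Signal of the 2 genes it names cannot be told apart. Signals of different probe sets are not compared as levels.

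Gm10590 was lower in AIRmax footpads, by the smallest of the differences without overlap. Its 4 probe sets, 10504137, 10504201, 10512350 and 10512352, had identical values on every array and count as 1 measurement. The signals were 5.47, 5.14, 5.31 and 5.28 in AIRmax control and 6.23, 6.01, 6.18 and 5.90 in AIRmin control footpads. In pristane footpads they were 5.40, 5.73, 5.87 and 5.60 in AIRmax and 6.13, 6.24, 5.98 and 6.19 in AIRmin. The lines did not overlap in either state, but over all 16 arrays the gap was only 0.03. The differences were -0.78 (SE 0.11) and -0.49 (SE 0.12), and their change of 0.29 had a 95% interval from -0.05 to 0.63. No position was available for Gm10590 in the RefSeq table by its Entrez number. For each of its 4 probe sets, all 10 nearest by number that name 1 gene lie on chromosome 4, which was not used to place it.

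Another 9 probe sets, 8 of them distinct, name Gm10590 together with other predicted genes. All 9 were lower in AIRmax. Their differences ran from -2.22 to -1.77 in control and from -1.60 to -1.07 in pristane footpads, without overlap between the lines. Deviations of Gm10590 from the group means correlated with theirs at 0.50 to 0.58. The shared probe sets thus differed more between the lines than those of Gm10590 alone, and which of the near-identical genes carried the signal cannot be told apart.

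**Figure D2:**
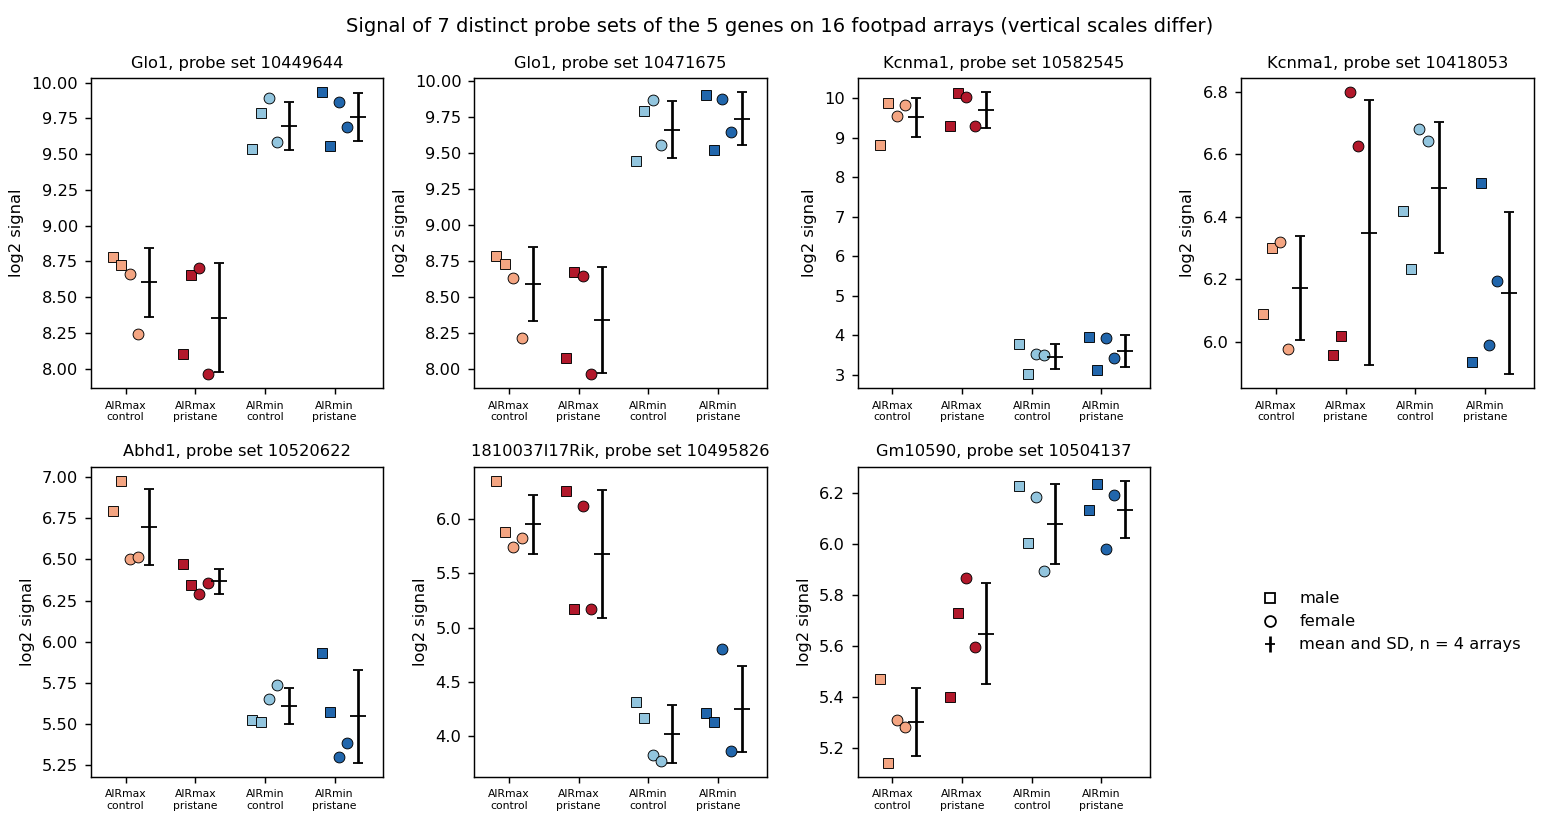
Log2 signal (vertical axes, different scales) of the 7 distinct probe sets in the 4 groups (horizontal axes), with squares for males, circles for females and bars for the mean and SD of 4 arrays. Except for Kcnma1 probe set 10418053, the AIRmax and AIRmin arrays do not overlap in control or in pristane footpads.

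Of the 10 probe sets, 9 separated the lines without overlap in control and again in pristane footpads, which is 6 of the 7 distinct ones. Of all 21789 probe sets, 10.3% did so in control and 10.7% in pristane footpads, and 1.53% did so in both and in 1 direction. All 8 arrays of AIRmax stood apart from all 8 of AIRmin in 0.753%. The genes were picked for this separation, and nothing is read from the count. The number of probe sets with a larger line difference in both states and in 1 direction was 23 for 1810037I17Rik, 115 for Glo1 probe set 10449644, 262 for Abhd1 and 875 for Gm10590. The same direction was seen within each sex for the 6 separated probe sets. Where all 8 arrays of a line lie apart from the other 8 this must be so, and nothing is read from it. The difference of Glo1 was -0.91 in males and -1.28 in females in control footpads, and that of Abhd1 1.37 and 0.81, with 2 arrays of a line and sex.

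**Figure D3:**
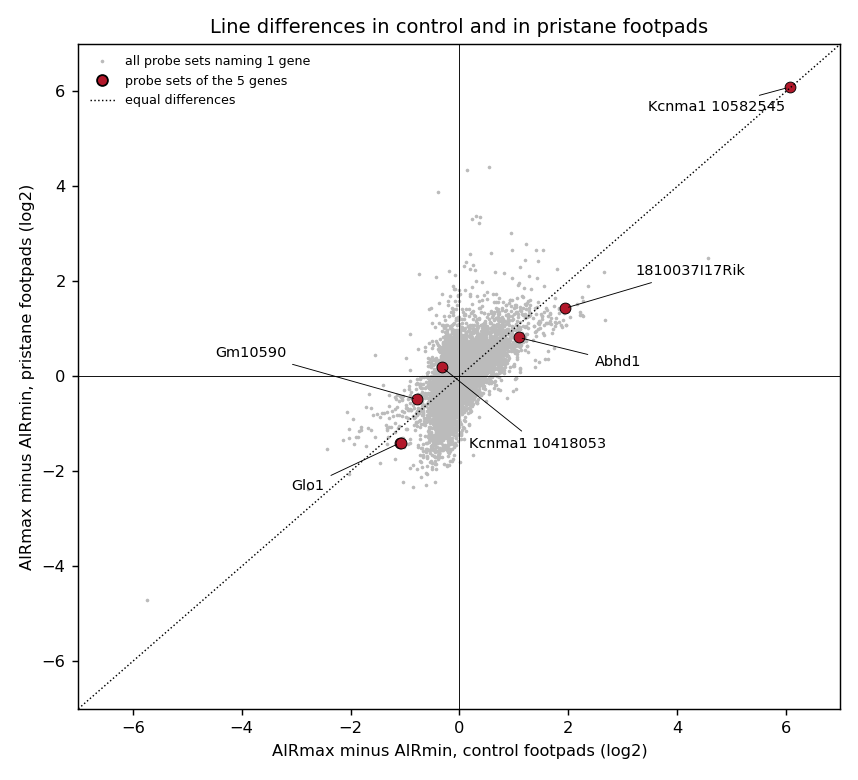
Line difference (AIRmax minus AIRmin, log2) in control footpads (horizontal axis) and in pristane footpads (vertical axis) for 21789 probe sets in grey and the 7 distinct probe sets in red, with a dotted line of equal differences. Kcnma1 probe set 10582545 lies at 6.07 and 6.09, farther out than any grey point, and probe set 10418053 lies near the origin.

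None of the 7 distinct probe sets differed significantly between pristane and control footpads. The pristane effect averaged over the lines is independent of the line differences in this balanced design and could be tested. In the fit over all 21789 probe sets (limma, Benjamini-Hochberg adjustment), 2.35% were called, against 0 of 7, with adjusted p from 0.186 to 0.964. At that share a count of 0 of 7 says nothing particular about these genes. The smallest p belonged to Gm10590, which was 0.20 higher (SE 0.08, limma adjusted p = 0.186). The averaged effects were -0.09 (SE 0.12) for Glo1 and 0.16 (SE 0.19) for Kcnma1 probe set 10582545. For Abhd1 the effect was -0.20, with a 95% interval from -0.40 to 0.00, and for 1810037I17Rik -0.02, with an interval from -0.41 to 0.37. Averaged changes of the size of the line differences of Glo1, Abhd1 and 1810037I17Rik lay outside these intervals, and smaller changes lay within them. Opposite effects in the lines cancel in such an average. For 1810037I17Rik the effect was -0.27 in AIRmax (interval from -0.90 to 0.35) and 0.23 in AIRmin (interval from -0.22 to 0.68). For Glo1 probe set 10449644 it was -0.25 in AIRmax and 0.06 in AIRmin.

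Within the lines, which share their arrays with the line comparisons, limma called 0 of 7 in AIRmax (0.239% of all) and 0 of 7 in AIRmin (0% of all). At an unadjusted p under 0.05 there were 2 in AIRmax, 1 in AIRmin and 3107 and 2643 of all. In AIRmax, Abhd1 was 0.33 lower in pristane than in control footpads (limma adjusted p = 0.278). It was the 1 of 7 without overlap of the groups, beside 9.37% of all probe sets. Gm10590 was 0.35 higher in AIRmax pristane footpads (limma adjusted p = 0.258). In AIRmin, Kcnma1 probe set 10418053 was 0.34 lower (adjusted p = 0.408). Females and males did not differ significantly either. Limma called 0 of 7 for sex (0.0688% of all, adjusted p = 0.9997 for each) and 0 of 7 for the difference of the pristane effect between the sexes, for which it called 0 of all and 853 had an unadjusted p under 0.05.

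Of the genes next to the members on the chromosome, 2 had a line difference that passed the test. The 5 nearest measured genes on each side of Glo1, Kcnma1, Abhd1 and 1810037I17Rik were taken, 40 in all. Limma called 0 of 40 in control (0.156% of all probe sets) and 2 of 40 in pristane footpads (1.27% of all). At an unadjusted p under 0.05 there were 9 in control, beside 16.7% of all, and 13 in pristane footpads, beside 18.6%. The lines did not overlap in 6 and 10 of the 40, beside 10.3% and 10.7%. Both lie beside 1810037I17Rik and ran against it, being lower in AIRmax, as were 0.482% of all probe sets. Usp53, which lies 5292 bases away and encodes a protein of tight junctions, was 6.88 ± 0.23 in AIRmax and 7.92 ± 0.25 in AIRmin (SD, n = 4), a difference of -1.04 (SE 0.16, adjusted p = 0.0269). Myoz2, a protein of the muscle Z-disc 80012 bases away, was 5.48 ± 0.46 against 6.93 ± 0.25, a difference of -1.45 (SE 0.22, adjusted p = 0.0269). In control footpads their differences were -0.32 and -0.26 (adjusted p = 0.409 and 0.678).

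Skeletal muscle markers moved with Myoz2. The score of the 8 markers, all measured, ran from -1.71 to -0.08 in AIRmax pristane and from 0.27 to 0.57 in AIRmin pristane footpads, without overlap, and its part in the result was not tested. The call of Usp53 was lost without array 112, 117 or 120 (adjusted p = 0.0706, 0.0925 and 0.0759), and that of Myoz2 without array 111, 112, 117, 119 or 120 (0.0506, 0.0778, 0.0944, 0.0700 and 0.0651). Both were also lost when every probe set of the table was tested (0.0518 each), and beside the epidermis score as a covariate, a step added after the data were seen, where the differences were -0.90 (adjusted p = 0.0992) and -1.37 (adjusted p = 0.0941). In the averaged pristane comparison limma called 1 of the 40, beside 2.35% of all probe sets (1.79% lower), and nothing is read from this count. The gene was Atraid, 93545 bases from Abhd1, which fell by 0.27 (limma adjusted p = 0.0372). It was named after its value was seen.

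Beside Glo1, Btbd9 was 7.46 ± 0.10 in AIRmax control and 7.84 ± 0.05 in AIRmin control footpads without overlap, a difference of -0.38 (SE 0.08, limma adjusted p = 0.130). In pristane footpads the difference was -0.41 (adjusted p = 0.140). Dnah8, an axonemal dynein on the other side 14276 bases away, differed by -0.19 (adjusted p = 0.714) and -0.64 (adjusted p = 0.147). Neither passed the test, and both differences were smaller than those of Glo1. Of the 10 neighbours of Glo1 limma called 0 in either state, and 3 were without overlap in control and 3 in pristane footpads. Among these, named after their values were seen, Tff3 differed by -0.34 and -0.38 (limma adjusted p = 0.204 and 0.176). Abcg1 was 1.09 higher in AIRmax pristane footpads (limma adjusted p = 0.0836), against the direction of Glo1. Preb, which shares bases with Abhd1, differed by 0.34 in control without overlap (adjusted p = 0.204) and by 0.44 in pristane footpads (adjusted p = 0.247), in the direction of Abhd1. Cgref1, on the other side of Abhd1, differed by -0.30 and 0.21 (adjusted p = 0.364 and 0.444). Emilin1, a glycoprotein of elastic fibres 28787 bases from Abhd1 and named after its values were seen, was 7.79 ± 0.40 in AIRmax and 6.68 ± 0.34 in AIRmin pristane footpads. This difference of 1.12 (SE 0.22, adjusted p = 0.0520) was without overlap, did not pass the test and was larger than the 0.82 of Abhd1. In control footpads it was 0.45 with overlap (adjusted p = 0.260).

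The 10 neighbours of Kcnma1 on chromosome 14 showed 0 calls in either state and 0 without overlap. Dlg5, a scaffold protein of cell polarity, differed by -0.13 and -0.04. Gm10248, on the other side, had group means between 2.80 and 3.09, and Fabp2, beside 1810037I17Rik, between 3.13 and 3.22. Both are within the absent range, where no difference could be read. The 10 chromosome 8 genes numbered next to Kcnma1 probe set 10582545, a list added after the data were seen, also had 0 calls in either state, with differences from -0.32 to 0.32 in control and from -1.27 to 0.70 in pristane footpads. The lines were without overlap in 0 of them in control and in 2 in pristane footpads, beside 10.3% and 10.7% of all probe sets. In the averaged pristane comparison limma called 1 of these 10, beside 2.35% of all probe sets. It was Vps9d1, which was 0.26 higher (limma adjusted p = 0.0399). No measured gene next to either place had a line difference near 6.07.

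**Figure D4:**
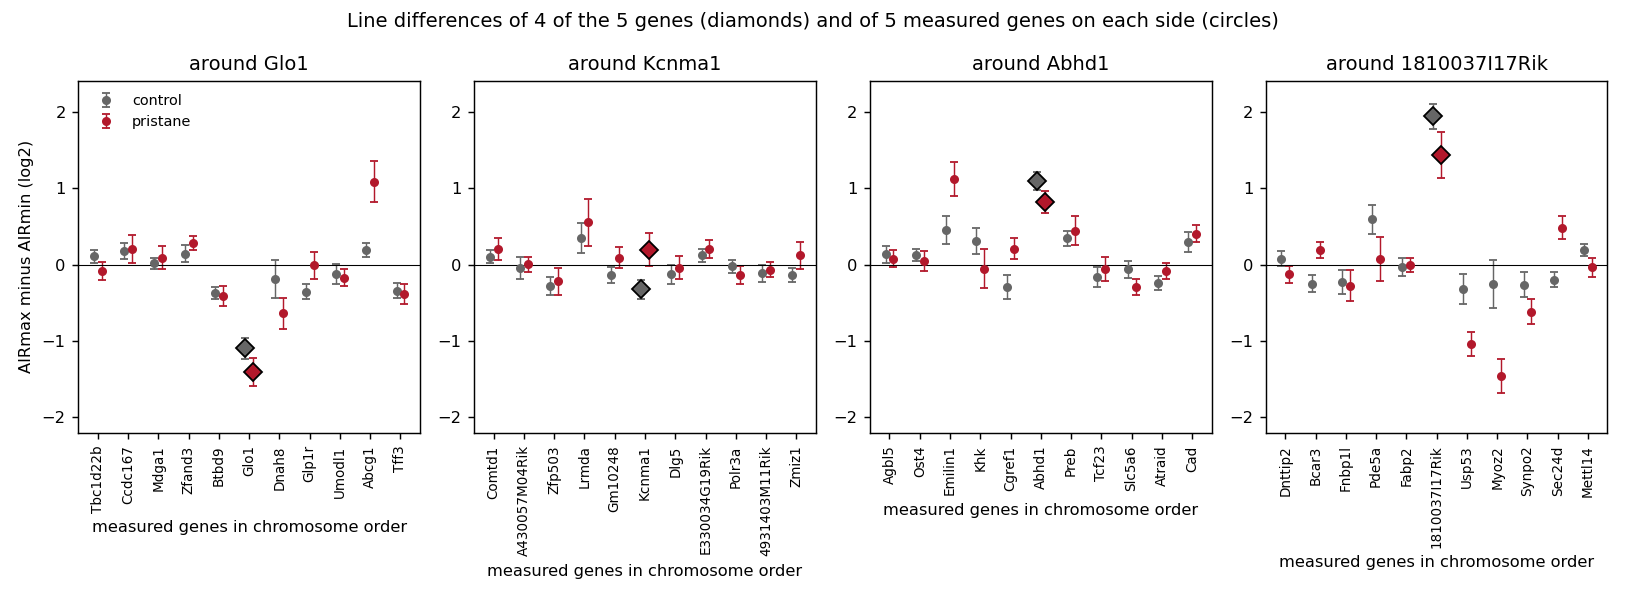
Line difference (AIRmax minus AIRmin, log2, vertical axes) of Glo1, Kcnma1 probe set 10418053, Abhd1 and 1810037I17Rik (diamonds) and of the 5 measured genes on each side in chromosome order (circles), in control footpads (grey) and pristane footpads (red), with bars for the SE. The diamonds of Glo1, Abhd1 and 1810037I17Rik stand apart from the control values of their neighbours. In pristane footpads Usp53 and Myoz2 reach -1.04 and -1.45, and Emilin1, at 1.12, lies above Abhd1.

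Of the genes that act with Glo1, 1 had a line difference that passed the test. Of 23 listed genes of methylglyoxal handling other than Glo1, 21 were measured. Limma called 0 in control (0.156% of all probe sets) and 1 in pristane footpads (1.27% of all). An unadjusted p under 0.05 was seen for 3 in control, beside 16.7% of all, and for 6 in pristane footpads, beside 18.6%. The median differences of the 21 genes, 0.07 and 0.06, stood beside medians of -0.03 and 0.00 over all probe sets. The called gene was Akr1b8, an aldo-keto reductase, higher in AIRmax as were 0.785% of all probe sets, at 7.25 in AIRmax and 6.57 in AIRmin pristane footpads, 0.68 higher (SE 0.12, adjusted p = 0.0384). The call was kept in 7 of 16 alternatives and in 1 of 8 with an array left out, with adjusted p from 0.00779 to 0.108. It was lost without array 109, 111, 112, 117, 118, 119 or 120. Gsr, glutathione reductase, was 9.86 in AIRmax and 8.65 in AIRmin control footpads without overlap (adjusted p = 0.206). Fn3krp, a kinase of glycated proteins, was 0.32 higher (adjusted p = 0.206) and Aldh9a1, an aldehyde dehydrogenase, 0.30 higher (adjusted p = 0.237) in AIRmax control footpads.

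Averaged over the lines, 1 of these 21 genes was lower in pristane footpads, as were 1.79% of all probe sets. Akr1e1, another aldo-keto reductase, fell by 0.58 (SE 0.11, limma adjusted p = 0.0140) in the averaged comparison and by 0.84 in AIRmax alone (SE 0.12, adjusted p = 0.0399). The averaged call was kept in 22 of 22 alternatives that tested it, and the AIRmax call in 6 of 15 and in 0 of 8 with an array left out. Gclc, a subunit of the enzyme that starts glutathione synthesis, was 0.34 lower (adjusted p = 0.104). Glo1 itself was 0.09 lower (adjusted p = 0.704).

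Of 15 listed BK channel subunits and related potassium channels, all measured, limma called 0 in control (0.156% of all probe sets) and 0 in pristane footpads (1.27% of all). At those shares a count of 0 in a list of this length says nothing particular about it. In the averaged pristane comparison (1.79% of all lower) it called 1, Kcnt2, a sodium-activated potassium channel, which fell by 0.51 (SE 0.10, adjusted p = 0.0180), and the call was kept in 22 of 22 alternatives. Lrrc26, an auxiliary subunit of the BK channel in glands, was 4.73 in AIRmax and 5.85 in AIRmin pristane footpads without overlap (difference -1.12, adjusted p = 0.130). Kcnn4, a calcium-activated channel of blood cells and glands, was 0.79 higher (adjusted p = 0.134).

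Of 20 listed genes of the ABHD family other than Abhd1, all measured, limma called 0 in control, 0 in pristane footpads and 0 in the averaged pristane comparison, with 6, 5 and 5 at an unadjusted p under 0.05. Of all probe sets 16.7%, 18.6% and 19.3% were at such a p. The largest difference was that of Abhd6, a lipase of monoacylglycerols, with 7.03 in AIRmax and 8.32 in AIRmin pristane footpads (difference -1.29, SE 0.30, adjusted p = 0.0722). In control footpads Abhd10 was 0.36 lower (adjusted p = 0.173) and Abhd18 0.36 higher (adjusted p = 0.185) in AIRmax, both without overlap.

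Within the groups, Glo1 varied together with the skin markers. The deviations of probe set 10449644 from the group means correlated over the 16 arrays at 0.88 with the score of the footpad epidermis markers (7 of 8 measured) and at -0.85 with that of the granulocyte precursor markers (6 of 6 measured). The 3 genes with the highest such correlation were Avpi1 (0.98), Sdr16c5, an epidermal retinol dehydrogenase (0.96), and Tuft1 (0.96). For Kcnma1 probe set 10582545 the values were 0.51 and -0.57, and for Abhd1 0.12 and -0.02. The points share arrays and normalization, and no test was made. Within a group, arrays with lower Glo1 signals thus tended to have a lower epidermis score. This was not particular to epidermis. The same deviations of Glo1 correlated at 0.72 with the sweat gland score and -0.52 with the adipocyte score. The values were -0.39 for macrophages, 0.23 for skeletal muscle and 0.20 for smooth muscle.

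The epidermis scores ran from -0.63 to 0.21 in AIRmax control and from 0.01 to 0.21 in AIRmin control footpads. In pristane footpads they ran from -1.64 to 0.26 and from -0.38 to 0.84. They overlapped between the lines in both states. The mean score of AIRmax minus that of AIRmin was -0.20 in control and -0.86 in pristane footpads, the direction of Glo1. The granulocyte precursor scores ran from 0.16 to 2.27 in AIRmax control and from -2.80 to -0.06 in AIRmin control footpads, without overlap, and from -0.52 to 2.28 and -2.01 to 1.50 with pristane. Fitted beside the epidermis score, a step added after the data were seen, the line difference of Glo1 was -1.08 in pristane footpads, against -1.40 without it. Fitted beside the granulocyte precursor score it was -0.80 in control footpads, against -1.09. There that score did not overlap between the lines, so that score and line are confounded and nothing is read from the change.

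The other marker scores bear on Kcnma1, which is rich in smooth muscle and glands. The smooth muscle score (9 of 9 markers) ran from -0.12 to 0.38 in AIRmax control and from 0.20 to 0.44 in AIRmin control footpads, and from -0.56 to -0.25 and -0.30 to 0.24 with pristane. The sweat gland score (11 of 11) differed between the lines by -0.09 and -0.43 and overlapped in both states. Deviations of Kcnma1 probe set 10418053 correlated at -0.05 with the former, -0.16 with the latter, -0.65 with skeletal muscle and 0.63 with the macrophage score (6 of 6). For probe set 10582545, in the same order, the values were -0.004, 0.50, -0.12 and -0.34. Its AIRmin signals were within the absent range. The macrophage score of AIRmax exceeded that of AIRmin by 1.34 in pristane footpads without overlap, and the difference in control footpads was -0.000616. The adipocyte score (6 of 6) overlapped between the lines in both states. Beyond the fits with the epidermis and granulocyte precursor scores, the part of these scores in the line differences was not tested. Between pristane and control footpads, the adipocyte score differed by -1.14 in AIRmax, without overlap, and by -0.74 in AIRmin, and the smooth muscle score by -0.49, without overlap, and by -0.29. Their part in the lower Akr1e1 and Kcnt2 signals of pristane footpads was not tested.

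The genes most like the members over the 16 arrays were those that also separated the lines. These correlations mostly rank the line difference, since the arrays form 2 sets. For Kcnma1 probe set 10582545 the highest was Prkx, an X-linked protein kinase (r = 0.986), which was 1.76 and 1.64 higher in AIRmax. The next were Man2a2 (0.955), a mannosidase of glycan processing, and Mir547 (0.920). The lowest were H2-Ea (-0.983), a class II histocompatibility chain that was 5.74 and 4.71 lower in AIRmax, the mast cell tryptase Tpsab1 (-0.95) and Opcml (-0.935). Among 13767 probe sets that name no gene or several, 1 had a correlation above 0.95 with it (0.985) and 5 one below -0.95. Without the group means the highest were Olfr1276 (0.907), Lgals4 (0.896) and Adcy1 (0.870).

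Prkx was also the most like Abhd1 (r = 0.908) and came after Kcnma1 probe set 10582545 for 1810037I17Rik (0.895 and 0.905). For both genes the 3 lowest were Opcml, Tpsab1 and H2-Ea, between -0.934 and -0.882. The other genes among the highest were Pla2g2a, a secreted phospholipase (0.895, for Abhd1), and AA388235 (0.887, for 1810037I17Rik). For Glo1 the highest were Adh7 (0.949), an alcohol dehydrogenase of epithelia, Rhbdl2 (0.949) and Cyp2j6 (0.941), and the lowest Tlr1 (-0.968), Marcksl1 (-0.964) and Cd300ld (-0.958). For Gm10590 the highest were 4921536K21Rik (0.898), Olfr12 (0.883) and Mir497 (0.871), and the lowest Pla2g2a (-0.936), Abhd1 (-0.895) and Scyl2 (-0.890).

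Between the members, the correlation of the signals ran from -0.916 for Glo1 and Kcnma1 probe set 10582545 to 0.906 for that probe set and Abhd1. That of the deviations from the group means lay between -0.18 and 0.37. The members were chosen for line differences, in both directions, which fixes the former correlations, and nothing is read from them. Their spread within the groups also differed. The SD was 0.42 for Kcnma1 probe set 10582545, 0.40 for 1810037I17Rik, 0.25 for Glo1, 0.19 for Abhd1 and 0.15 for Gm10590, beside a median of 0.18 over all probe sets. With the deviations, the genes most like Abhd1 were Slc45a2 (0.793), Uso1 (0.780) and Pramel20 (0.774), those most like 1810037I17Rik were Gm6306 (0.878), Olfr485 (0.844) and Prl2b1 (0.841), and those most like Gm10590 were Zfp507 (0.833), Mir708 (0.808) and LOC100043315 (0.803).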

How the data were processed

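Values were log2 signals per probe set, normalized and deposited by the authors. The sample titles name gene-level RMA output, the submitters' processing notes name MAS5, and no version was given in the sources used here. The values were used as deposited. Probe sets were named through the platform annotation (21789 with 1 gene, 1621 with several, 12146 with none), and 21698 of the former matched RefSeq (GRCm38.p6) by Entrez number, which gave the positions. The study used SAM, which was not at hand; limma 3.58.1 (lmFit, eBayes) in R 4.3.3 took its place, on the 8 arrays of each pair of groups, or on all 16 for averaged pristane, sex and sex by pristane effects. P values were adjusted over 21789 probe sets (Benjamini-Hochberg, threshold 0.05). The fits were tested on simulated data. SE values and 95% intervals come from limma, and ± values are SDs. For a marker score, each gene was centred on the 16 arrays and the centred genes of a list were averaged. Array signal has no counted depth, and 4 arrays per group limit the precision. Members, lists and neighbours were chosen with earlier results of these data known. Named genes are the members, their adjacent neighbours and those called between the lines, the 3 most and least correlated genes, up to 3 per list and comparison with the smallest p, and markers. Alternatives were 1 probe set per gene, every probe set, signals above the median, standardized arrays, quantile normalization, 1 fit of 16 arrays, a covariate for sex, a prior with trend and robust fit, and leaving out each array. Figures were drawn with Python 3.11.15, numpy 2.4.6, pandas 2.3.3 and matplotlib 3.10.9.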

Additional observations from a re-analysis of the deposited data

How the results depend on the processing

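The line differences of the 7 distinct probe sets kept their sign in 242 of 242 alternatives and moved by less than the SD within groups in 236. Much of this was fixed in advance. Where the lines do not overlap, leaving out an array cannot reverse the sign. A changed set of tested probe sets or a changed prior leaves the difference as it was. The 6 alternatives that moved it more were all fits with a marker score as a covariate, added after the data were seen. With the granulocyte precursor score the control difference was -0.80 and -0.78 for the Glo1 probe sets 10449644 and 10471675 and -0.63 for Gm10590. In control footpads that score did not overlap between the lines and is confounded with them. With the epidermis score the pristane difference was -1.08 for both Glo1 probe sets and 6.53 for Kcnma1 probe set 10582545. The cause was not tested. The tested effects of pristane and sex on the 7 stayed without a call in 682 of 682 alternatives. Counts over all genes moved more. Against 34 called between the lines in control footpads, 16 were called with 1 probe set per gene, 9 above the median signal and 10 to 29 with an array left out (fewest without array 115). Against 276 in pristane footpads, 100 were called with every probe set, 1592 in 1 fit of 16 arrays, 175 with sex as a covariate and 15 to 575 with an array left out (without arrays 117 and 110). Against 513 in the averaged pristane comparison there were 253 to 828 (without arrays 114 and 108). Against 52 in AIRmax there were 15 with every probe set, 19 above the median signal, 323 in 1 fit of 16 arrays, 112 with sex as a covariate and 4 to 83 with an array left out (without arrays 106 and 109). Against 0 in AIRmin there were 47 above the median signal, 3 with standardized arrays, 3 with quantile normalization, 2 with sex as a covariate, 33 with a trended robust prior and 0 to 150 with an array left out (150 without array 118). For sex there were 9 above the median signal and 8 to 75 with an array left out, against 15 (without arrays 114 and 118), and for sex by pristane 0 to 1 against 0 (1 without array 116). Neighbours called in pristane footpads numbered 0 with every probe set, 7 in 1 fit of 16 arrays and 0 to 3 with an array left out, against 2; the list of chromosome 8 genes gave 0. List genes called there numbered 0 with every probe set, 3 in 1 fit, 0 with sex as a covariate and 0 to 2 with an array left out, against 1. In the averaged comparison 0 were called above the median signal, where the called genes were not tested, and 2 to 3 with an array left out, against 2. No paired analysis was possible because the array numbers of the groups do not overlap.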
